A study of Mus musculus with 4 samples.

Results

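The neuregulins and the ErbB receptors were followed through 8 genes in cells sorted from the embryonic mouse cortex after overexpression of Zeb1. The genes are the 4 neuregulins Nrg1, Nrg2, Nrg3 and Nrg4 and the 4 receptors Egfr, Erbb2, Erbb3 and Erbb4. They were found by symbol among the 48395 genes of the deposited expression table, and 7 of the 8 reached the mean of 1 FPKM (fragments per kilobase of transcript, scaled to library size) that was set for testing. Erbb3 did not reach it. The family was chosen with earlier results of the same comparison known, Nrg2 among them. The values of its members are therefore a description, and nothing is read from their tests. ICR embryos were electroporated in utero at E14.5, and fluorescent cells of the dissociated cortex were sorted 48 hours later, at E16.5. The control group (2 libraries) had received the CAG-IRES-ZsGreen plasmid and the Zeb1 group (2 libraries) the CAG-Zeb1-IRES-ZsGreen plasmid. Both groups therefore expressed the green fluorescent protein ZsGreen from the ubiquitous CAG promoter, in whichever cortical cells had taken up plasmid. ZEB1 is a zinc-finger repressor best studied in epithelial cells that turn mesenchymal, and the question was what its excess does to cells of the developing cortex.

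Neuregulins are growth factors whose EGF-like domain binds ErbB receptor tyrosine kinases. ErbB3 and ErbB4 bind neuregulins directly, ErbB2 has no known ligand and serves as their partner in receptor dimers, and ErbB3 has little kinase activity of its own. The EGF receptor, encoded by Egfr, instead binds EGF, TGF-alpha and related ligands. In the developing forebrain, neuregulin-1 acting on ErbB4 is known for guiding interneurons into the cortex and for signals to radial glia, and the EGF receptor is known from late progenitors and the glial lineage.

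The plasmid gene separated the groups. Zeb1 stood at 35.2 and 18.6 FPKM in the control and at 5622 and 6227 FPKM in the Zeb1 libraries, a log2 change of 7.80 with a standard error of 0.35 on the log2(FPKM + 1) scale (limma adjusted p = 0.0192). That call ended without a filter (adjusted p = 0.229), with a replicate block (0.0735) and with any 1 library left out (0.116 to 0.330), while the log2 change stayed between 7.35 and 8.24 with 1 library left out. The table gives no counts, so the absolute depth is unknown. The other libraries had between 0.994 and 1.04 times the depth of control replicate 1, as judged from the values of short genes. Between 13647 and 13997 genes per library reached 1 FPKM. Defining genes of cortical projection neurons were abundant, with mean Neurod6 levels of 460 FPKM (control) and 413 FPKM (Zeb1). Libraries of a group were not alike in microglial transcripts, whose 11 markers summed to 456 and 114 FPKM in the control and to 835 and 443 FPKM in the Zeb1 libraries. In sorted bulk cells, fewer cells of a type and less RNA per cell cannot be told apart.

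Among the neuregulins, Nrg1 was the most abundant and Nrg2 differed most between the groups. In control cells the order of levels was Nrg1, Nrg3, Nrg4, Nrg2. Nrg3 and Nrg4 lay near each other there (2.17 ± 0.300 and 1.89 ± 0.1499 FPKM, SD, n = 2), and control replicate 2 held slightly more Nrg4 than Nrg3. In Zeb1 cells Nrg2 took second place, above Nrg3 and Nrg4 in both libraries. Of the receptors, Egfr was higher and the others overlapped between the groups or nearly did. At an adjusted p under 0.05 in the limma fit over all 14330 genes tested, 0 of the 7 members passed, where 0.195% of all genes did. At an unadjusted p under 0.05, 2 members were higher and 0 lower, against 3.23% of all genes higher and 3.68% lower. Both Zeb1 libraries lay above both controls for 5 of the 7 members, and for 18.2% of all genes tested. They lay below both controls for 0 members and for 19.5% of all genes. Because the family was chosen on this contrast, nothing is read from these shares.

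**Figure D1:**
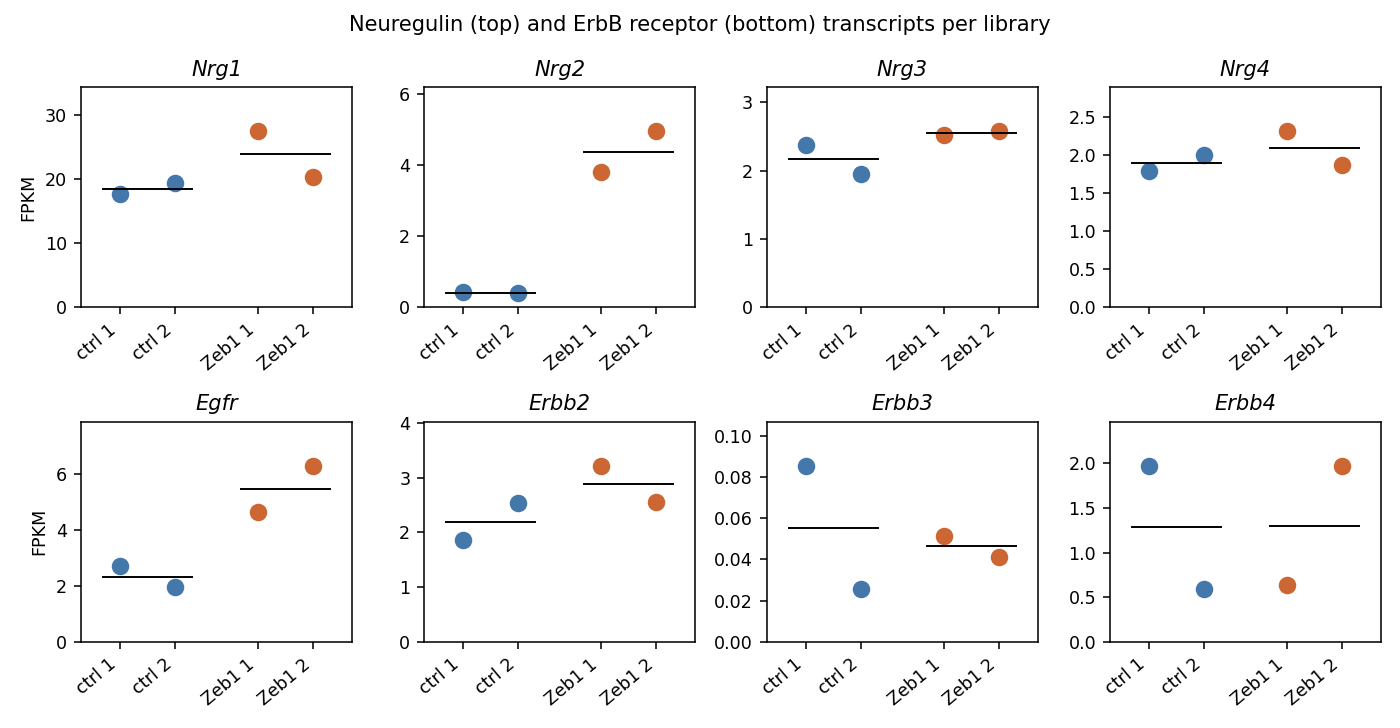
FPKM of each of the 8 genes in each library, with neuregulins in the top row and receptors in the bottom row. Blue points are control and orange points Zeb1 libraries, black lines are group means (n = 2), and each panel has its own linear axis from 0. Nrg2 (0.387 to 0.426 against 3.80 to 4.96 FPKM) and Egfr separate widely, while for Erbb4 1 library of each group is near 2 FPKM (1.97 FPKM in both) and the other is near 0.6 FPKM.

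Nrg2 encodes a neuregulin that binds ErbB3 and ErbB4 and is made by neurons. The gene lies on chromosome 18 of GRCm38, positions 36017707 to 36197380, on the minus strand, and GENCODE lists 3 protein-coding transcripts for it. It stood at 0.426 and 0.387 FPKM in the control and at 3.80 and 4.96 FPKM in the Zeb1 libraries. The groups were far apart, since the lower Zeb1 library was 8.91 times the higher control, while replicates differed by at most 1.30 times. The means were 0.407 ± 0.0276 and 4.38 ± 0.817 FPKM (SD, n = 2 each), a ratio of 10.8. On the log2(FPKM + 1) scale, which understates changes of low genes, the log2 change was 1.93 with a standard error of 0.25, and with a pseudocount of 0.1 it was 3.13. Of all genes tested, 1.63% had a larger log2 change, and of the 11916 protein-coding genes 0.143% did. Nrg2 reached the mean of 1 FPKM set for testing only through the Zeb1 libraries, so nothing is read from these shares. No other locus of the table overlapped the gene.

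Nrg1, the best-studied neuregulin and a ligand of ErbB3 and ErbB4, made up most of the neuregulin transcripts in every library. It spans 1069.5 kb on the minus strand of chromosome 8, positions 31814551 to 32884029, with 12 protein-coding transcripts from 10 start sites in GENCODE. The FPKM are given per gene, so the membrane-bound and secreted types that these transcripts encode were not told apart. Nrg1 had 17.7 and 19.4 FPKM in the control and 27.5 and 20.3 FPKM in the Zeb1 libraries. The groups did not overlap, but the lower Zeb1 library was only 1.049 times the higher control. The log2 change was 0.34 with a standard error of 0.20, and it ranged from 0.13 to 0.54 with 1 library left out, lowest without Zeb1 replicate 1.

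Nrg3 encodes a neuregulin that binds ErbB4 and is made mostly in the nervous system. It lies on the minus strand of chromosome 14, positions 38368952 to 39473088. Its levels were 2.38 and 1.95 FPKM in the control and 2.52 and 2.57 FPKM in the Zeb1 libraries, a log2 change of 0.17 with a standard error of 0.21. The Zeb1 libraries were the higher, with means less far apart than the 2 controls were from each other. Nrg4, another ErbB4 ligand, lies on the minus strand of chromosome 9, positions 55220222 to 55326844. It had 1.79 and 1.998 FPKM in the control and 2.31 and 1.87 FPKM in the Zeb1 libraries, a log2 change of 0.09 with a standard error of 0.23. The groups overlapped. Over 4212 bp the Nrg4 locus overlaps Fbxo22, on the opposite strand, which had 24.1 to 31.3 FPKM, and the sources used here do not say whether reads were counted by strand, so reads of the pair cannot be told apart there.

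The 4 neuregulins summed to 22.3 and 23.7 FPKM in the control and to 36.1 and 29.7 FPKM in the Zeb1 libraries. Nrg1 held 79.4% and 81.7% of that sum in the control and 76.1% and 68.4% in the Zeb1 libraries. Nrg2 held 1.91% and 1.63% in the control and 10.5% and 16.7% in the Zeb1 libraries. The larger sum in Zeb1 replicate 1 came mostly with Nrg1, and that in Zeb1 replicate 2 mostly with Nrg2.

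**Figure D2:**
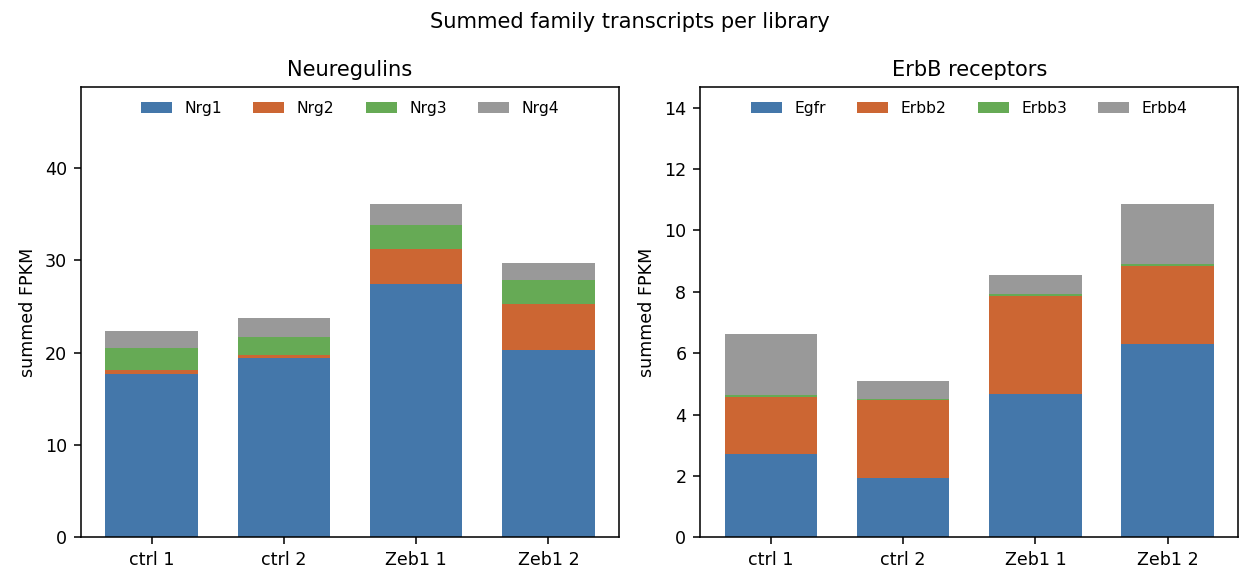
Summed FPKM per library, stacked by gene, for the 4 neuregulins (left) and the 4 receptors (right), both from 0. The neuregulin sum is 22.3 and 23.7 FPKM in the control and 36.1 and 29.7 FPKM in the Zeb1 libraries, and the receptor sum is 6.61 and 5.10 against 8.55 and 10.9 FPKM.

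Egfr differed most among the receptors. The gene lies on the plus strand of chromosome 11, positions 16752203 to 16918158, and its antisense gene Egfros reached at most 0.0257 FPKM. Egfr had 2.70 and 1.95 FPKM in the control and 4.65 and 6.29 FPKM in the Zeb1 libraries. Both Zeb1 libraries were above both controls, the lower one by 1.72 times. The means were 2.32 ± 0.532 and 5.47 ± 1.16 FPKM (SD, n = 2 each), and the log2 change was 0.96 with a standard error of 0.25. It ranged from 0.78 to 1.14 with 1 library left out. Of all genes tested, 4.88% had a larger log2 change, and of the protein-coding genes 2.81%. Nothing is read from these shares, since the family was chosen on this contrast.

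The upstream sequences of Egfr, the receptor that differed most, and of Erbb4, whose groups overlapped, are shown because the overexpressed factor binds DNA. Each is the 250 bases before the annotated start in RefSeq on GRCm38.p6, written 5′ to 3′ on the gene's strand, from chr11:16751953-16752202 (plus strand) for Egfr and chr1:69108060-69108309 (minus strand) for Erbb4. Capitals mark the GC box GGGCGG or its reverse complement CCGCCC.
Egfr: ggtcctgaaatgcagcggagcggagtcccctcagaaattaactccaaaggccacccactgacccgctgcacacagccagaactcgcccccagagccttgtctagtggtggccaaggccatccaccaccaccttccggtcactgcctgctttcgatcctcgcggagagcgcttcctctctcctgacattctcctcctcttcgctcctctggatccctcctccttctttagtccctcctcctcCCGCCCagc
Erbb4: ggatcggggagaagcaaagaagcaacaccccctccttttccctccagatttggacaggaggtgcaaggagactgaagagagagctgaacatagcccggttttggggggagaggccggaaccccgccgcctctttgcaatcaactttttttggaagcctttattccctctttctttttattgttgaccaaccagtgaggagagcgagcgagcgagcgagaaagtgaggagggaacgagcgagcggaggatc
RefSeq windows of 300 bases, from 250 before to 50 after the start, were searched for 5 members only (Nrg3, Nrg4, Egfr, Erbb2 and Erbb4). No window of Nrg1, Nrg2 or Erbb3 was included, so the search says nothing of Nrg2, the member with the largest change. Both strands were searched for CAGGTG and CAGGTA, E-box forms that ZEB1 is known to bind, and for GGGCGG, and no matches overlapped. None of the 5 windows held CAGGTG or CAGGTA, which 20.2% and 11.96% of all 32851 promoter windows hold. GGGCGG occurred once, in the Egfr window, and occurs in 35.7% of all windows. The windows ran from 51.0% G and C in Nrg4 to 74.3% in Nrg3, and all but that of Nrg4 were above the median of 52.7% over all windows. Such matches describe these letters only, and binding was not measured here.

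Erbb2, the receptor without a known ligand, lies on the plus strand of chromosome 11, positions 98412470 to 98437716. It had 1.86 and 2.53 FPKM in the control and 3.22 and 2.55 FPKM in the Zeb1 libraries, a log2 change of 0.29 with a standard error of 0.24. Control replicate 2 and Zeb1 replicate 2 were nearly level, so the groups were separated by 1.01 times only. Its end overlaps the oppositely oriented gene Mien1, at 66.2 to 82.7 FPKM, over 9 bp.

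Erbb4, the neuregulin receptor of cortical interneurons, varied more between replicates than between groups. It spans 1075.9 kb on the minus strand of chromosome 1, positions 68032186 to 69108059. It had 1.97 and 0.596 FPKM in the control and 0.632 and 1.97 FPKM in the Zeb1 libraries. Each group thus held a high and a low library, 3.31 times apart in the control and 3.12 times in the Zeb1 group. The log2 change was 0.02 with a standard error of 0.51, and it took either sign with 1 library left out, from -0.43 to 0.46. A change in either direction of that size is therefore not resolved by these libraries.

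As to the interneurons that express Erbb4, the 17 marker genes of these cells summed to 111 and 109 FPKM in the controls and to 148 and 133 FPKM in the Zeb1 libraries. Of the 16 tested, 0 passed in limma, with 1 higher and 0 lower before adjustment (p under 0.05), against 3.23% and 3.68% of all genes. The GABA-synthesis gene Gad1, chosen after its values were seen, had 5.60 and 3.91 FPKM in the control and 4.52 and 8.19 FPKM in the Zeb1 libraries. Gad1 thus ordered the 4 libraries as Erbb4 did, while the sum of the list did not, and the part of interneurons in the Erbb4 values was not tested.

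Erbb3, the neuregulin receptor of the glial and Schwann cell lineages, was nearly undetected. It lies on the minus strand of chromosome 10, positions 128567523 to 128589652, and had 0.0853 and 0.0254 FPKM in the control and 0.0515 and 0.0411 FPKM in the Zeb1 libraries. The groups overlapped, and no change is read from values this low. Without the filter on low values the log2 change was -0.01 with a standard error of 0.04. Sox10, which marks both lineages and was chosen after its values were seen, was also low, at 0.316 and 0.157 FPKM in the control and 0.238 and 0.286 FPKM in the Zeb1 libraries. Of the 10 oligodendrocyte-lineage markers, 4 stayed under 1 FPKM in all libraries, and of the 7 Schwann and neural crest markers 5 did.

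The 4 receptors summed to 6.61 and 5.10 FPKM in the control and to 8.55 and 10.9 FPKM in the Zeb1 libraries, below the neuregulin sum in each library. Egfr held 40.8% and 38.2% of the receptor sum in the control and 54.4% and 57.9% in the Zeb1 libraries. Without Egfr, the neuregulin-related receptors Erbb2, Erbb3 and Erbb4 summed to 3.92 and 3.15 FPKM in the control and 3.90 and 4.57 FPKM in the Zeb1 libraries. Those sums overlapped between the groups.

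**Figure D3:**
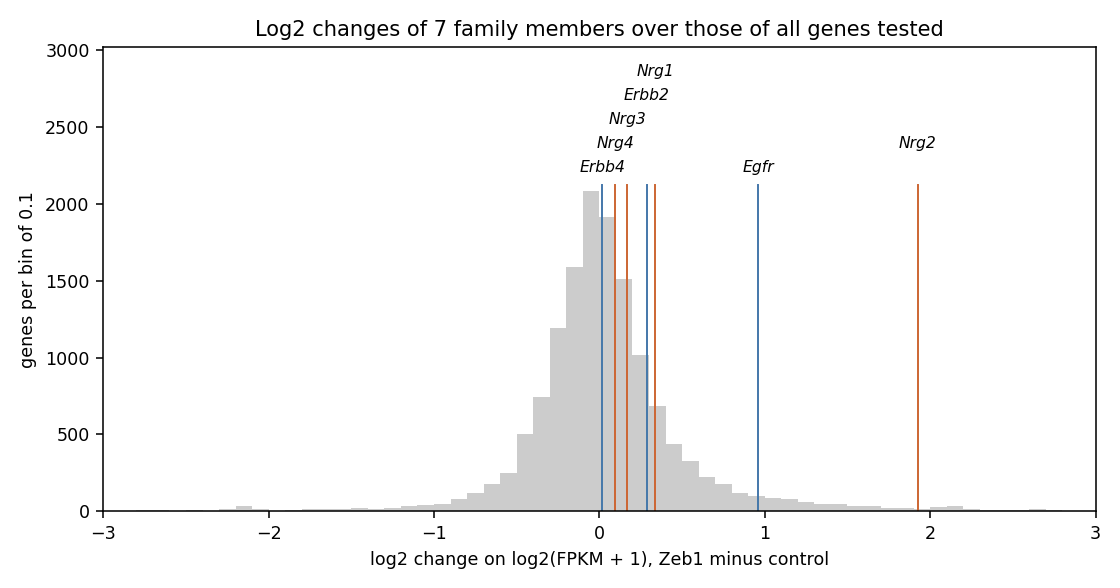
Histogram of log2 changes (Zeb1 minus control on log2(FPKM + 1), bins of 0.1) of all 14330 genes tested, cut off at 3 in either direction. Vertical lines mark the 7 members tested, neuregulins in orange and receptors in blue. Nrg2 at 1.93 and Egfr at 0.96 lie on the right, and the other members lie between 0.02 and 0.34.

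Over the 7 members tested the median log2 change was 0.29, against 0.00 over all genes tested, and all 7 values were positive, as were 50.1% of those of all genes. The family was chosen on this contrast, so nothing is read from these values either. Nrg4 and Erbb4 turned negative with quantile normalization.

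Genes whose values over the 4 libraries were most like those of Nrg2 were sought among 11888 protein-coding genes, by the Euclidean distance between mean-centred log2(FPKM + 1) values. The nearest was Thsd7a, at 0.546 and 0.787 FPKM in the control and 4.39 and 6.41 FPKM in the Zeb1 libraries (distance 0.205, where the median gene had 1.98). Col4a6 and Col4a5, which encode chains of basement-membrane collagen, Slc35f4, a member of a solute carrier family, and Gsn, the gene of the actin-severing protein gelsolin, came next, with distances of 0.275 to 0.303. Over 4 libraries such likeness is a description. All 5 had both Zeb1 libraries above both controls, as Nrg2 did, which follows from choosing them by likeness to Nrg2.

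**Figure D4:**
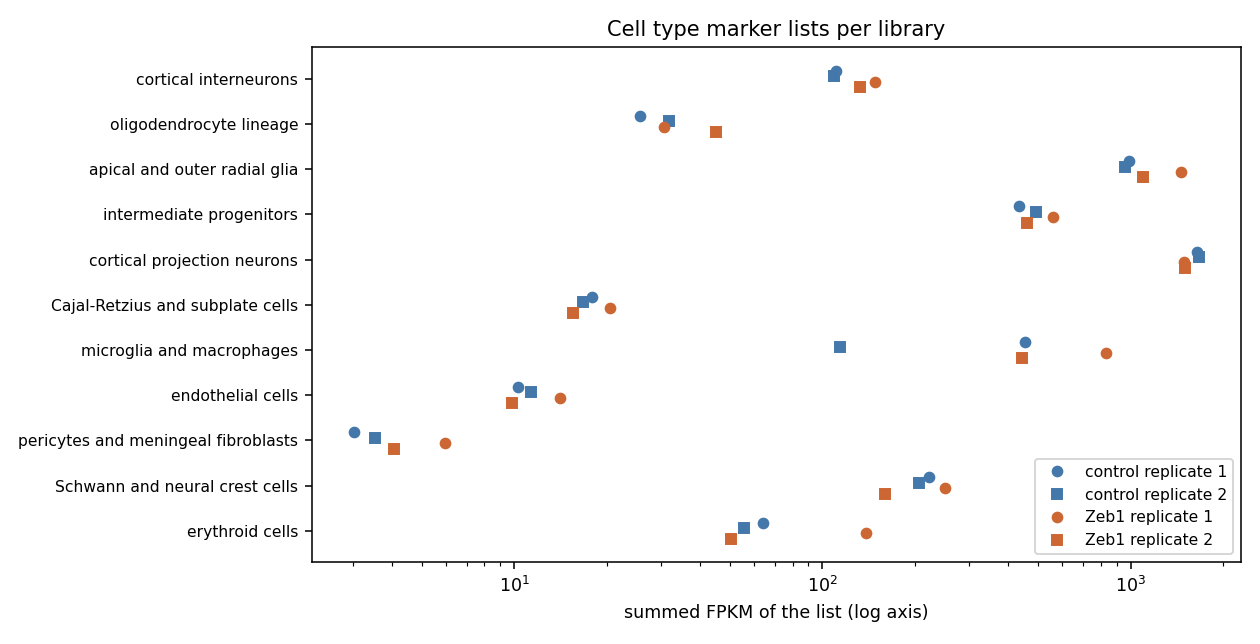
Summed FPKM of 11 cell type marker lists (rows) in each library on a log axis. Blue is control and orange Zeb1, circles are replicate 1 and squares replicate 2. The microglial sum is 114 FPKM in control replicate 2 and 443 to 835 FPKM in the other libraries, and the radial glial sum is 957 to 989 FPKM in controls and 1097 to 1463 FPKM in Zeb1 libraries.

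The part of other cell types in the Nrg2 and Egfr values was not tested, and their marker sums are given here. No marker gene of the 11 lists passed in limma. The 12 radial glial markers summed to 989 and 957 FPKM in the control and to 1463 and 1097 FPKM in the Zeb1 libraries. Of the 12 tested, 2 were higher and 0 lower before adjustment (p under 0.05), against 3.23% and 3.68% of all genes. Most of the difference between the sums lay in the intermediate filament gene Vim, at 392 and 384 FPKM in the control and 758 and 561 FPKM in the Zeb1 libraries. The progenitor factor Pax6 had 119 and 84.9 FPKM in the control and 139 and 84.5 FPKM in the Zeb1 libraries. Those levels overlapped.

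The 10 oligodendrocyte-lineage markers summed to 25.5 and 31.7 FPKM in the control and to 30.6 and 45.0 FPKM in the Zeb1 libraries, and the groups overlapped. Olig1 had 7.57 and 6.69 FPKM against 9.35 and 9.27 FPKM, and the myelin gene Mbp had 3.69 and 6.26 FPKM against 2.83 and 14.2 FPKM, with overlap. The microglial sums given above overlapped too, but all 11 microglial markers had positive log2 changes, with a median of 1.27. Positive changes were found in 50.1% of all genes. Both Zeb1 libraries lay above both controls for 3 of the 11 and below for 0, against 18.2% and 19.5% of all genes. Before adjustment (p under 0.05 in limma), 0 were higher and 0 lower, against 3.23% and 3.68% of all genes. Marker sums of endothelial cells (9.83 to 14.1 FPKM), of pericytes and meningeal fibroblasts (3.02 to 5.95 FPKM) and of Cajal-Retzius and subplate cells (15.5 to 20.5 FPKM) were low in all libraries. Erythroid markers summed to 64.3 and 55.6 FPKM in the control and to 139 and 50.6 FPKM in the Zeb1 libraries, with overlap. Schwann and neural crest markers summed to 159 to 249 FPKM, nearly all of it Fabp7, which radial glia also express. Markers of intermediate progenitors summed to 435 to 561 FPKM. Those of projection neurons summed to 1645 and 1665 FPKM in the control and to 1486 and 1506 FPKM in the Zeb1 libraries, both below both controls. Of the 11 projection neuron genes tested, 0 were higher and 2 lower before adjustment (p under 0.05), against 3.23% and 3.68% of all genes. The smallest adjusted p in limma was 0.367.

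The wider ErbB pathway was followed through 154 other genes in 8 lists, of which 140 were tested. Over all genes tested, 0 of the 140 passed in limma at an adjusted p under 0.05, and the smallest adjusted p was 0.394. At an unadjusted p under 0.05, 11 (7.86%) were higher and 5 (3.57%) lower, against 3.23% and 3.68% of all genes. Without control replicate 2 the higher count was 3, and without Zeb1 replicate 1 it was 6. The median log2 change was 0.12 over the 140 genes, and it ranged from 0.040 without control replicate 2 to 0.203 without control replicate 1. In single lists, the counts before adjustment ranged from 0 to 7 higher and from 0 to 2 lower with 1 library left out.

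**Figure D5:**
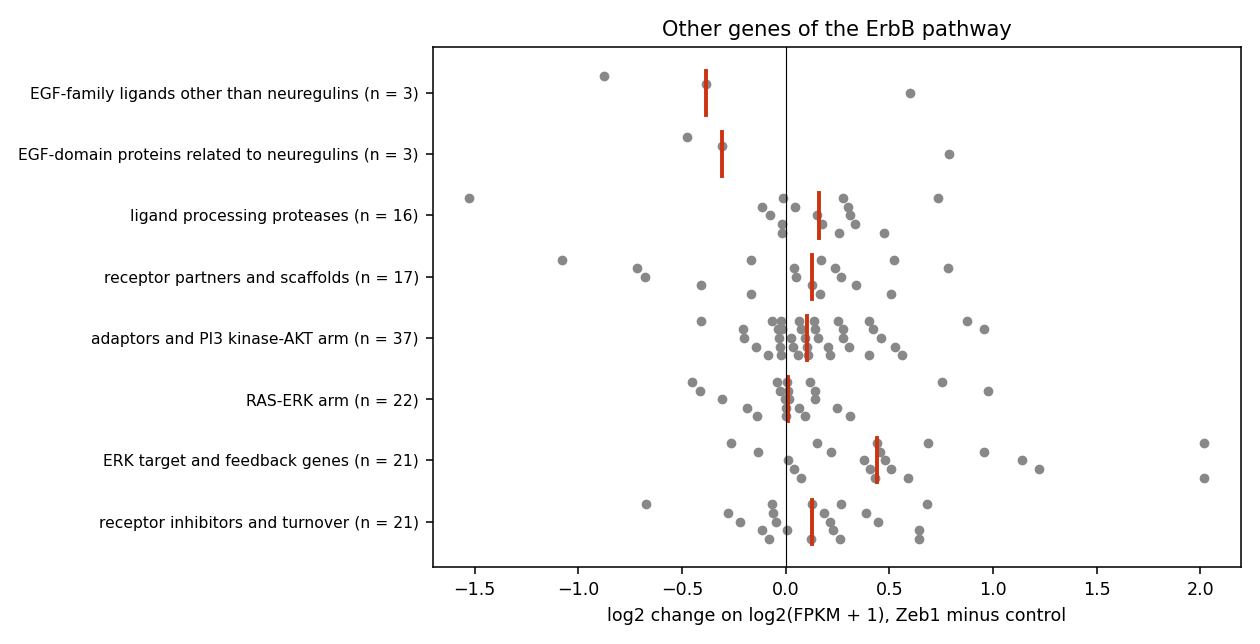
Log2 change (Zeb1 minus control on log2(FPKM + 1)) of each tested gene (grey points) in 8 lists of ErbB pathway genes, with the list's median as a red bar. The medians lie between -0.38 and 0.44, and 0 of the 140 genes passed the test over all genes.

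Of the 7 other EGF-family ligands, those that bind the EGF receptor, 3 reached the level for testing and 4 stayed under 1 FPKM in all libraries. Of the 3, 0 passed in limma, with 0 higher and 1 lower before adjustment (p under 0.05), against 3.23% and 3.68% of all genes. Tgfa, which encodes TGF-alpha, had 2.85 and 3.81 FPKM in the control and 1.199 and 1.49 FPKM in the Zeb1 libraries, a log2 change of -0.88. Hbegf, the heparin-binding ligand, had 1.74 and 1.75 FPKM in the control and 4.09 and 2.40 FPKM in the Zeb1 libraries, a log2 change of 0.60. The groups did not overlap for either gene, and the directions were opposite. Of the 3, both Zeb1 libraries thus lay above both controls for 1 and below for 1, against 18.2% and 19.5% of all genes. Egf had 1.93 and 1.79 against 1.82 and 0.699 FPKM, with overlap.

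Among related EGF-domain membrane proteins, Tmeff1 was far more abundant than any neuregulin, while Cspg5 and Tmeff2 were below Nrg1. Of the 3 genes tested 0 passed in limma, with 1 higher and 1 lower before adjustment (p under 0.05), against 3.23% and 3.68% of all genes. Tmeff1 had 175 and 180 FPKM in the control and 126 and 129 FPKM in the Zeb1 libraries, a log2 change of -0.47. Tmeff2 had 0.703 and 1.198 against 2.22 and 2.46 FPKM, a log2 change of 0.79. Cspg5, which encodes the brain proteoglycan neuroglycan C, had 11.4 and 15.9 against 10.8 and 10.7 FPKM. The abundant Tmeff1 was thus lower and the scarce Tmeff2 higher, each without overlap. Of the 3, both Zeb1 libraries lay above both controls for 1 and below for 2, against 18.2% and 19.5% of all genes.

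Proteases that shed or process ErbB ligands had a median log2 change of 0.16 over 16 genes tested, of which 0 passed in limma. Before adjustment (p under 0.05), 1 was higher and 0 lower, against 3.23% and 3.68% of all genes. The sheddase gene Adam10 had 27.2 and 26.1 FPKM in the control and 37.0 and 37.8 FPKM in the Zeb1 libraries, a log2 change of 0.47. Adam17, the sheddase of TGF-alpha, had 17.2 and 8.48 against 21.5 and 20.1 FPKM, with controls far apart, and Adam19, a protease of neuregulin processing, had 6.64 and 6.14 against 7.91 and 8.43 FPKM. The gamma-secretase gene Psen2 varied within groups, with 25.5 and 7.72 against 7.41 and 2.31 FPKM. These 4 genes were named for the smallest p. Of the 16, both Zeb1 libraries lay above both controls for 6 and below for 1, against 18.2% and 19.5% of all genes.

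Partners and scaffolds of the receptors had a median log2 change of 0.13 over 17 genes tested (-0.011 without Zeb1 replicate 1), of which 0 passed in limma. Before adjustment (p under 0.05), 0 were higher and 2 lower, against 3.23% and 3.68% of all genes. Pick1, a PDZ protein that binds ErbB2, had 37.5 and 35.0 FPKM in the control and 21.8 and 12.7 FPKM in the Zeb1 libraries, a log2 change of -1.08. The synaptic scaffold Dlg2 had 20.8 and 14.1 against 9.77 and 10.96 FPKM, a log2 change of -0.68. The scaffold genes Magi2 and Lin7b had log2 changes of 0.52 and -0.72. All 4 kept the groups apart, which largely follows from naming the genes of smallest p. Of the 17, both Zeb1 libraries lay above both controls for 4 and below for 4, against 18.2% and 19.5% of all genes.

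Among adaptors and the PI3 kinase-AKT arm, 37 genes were tested and 0 passed in limma, with a median log2 change of 0.10. Before adjustment (p under 0.05), 2 were higher and 0 lower, against 3.23% and 3.68% of all genes. The adaptor gene Shc2 had 9.79 and 9.53 FPKM in the control and 17.4 and 19.8 FPKM in the Zeb1 libraries, a log2 change of 0.87 with a standard error of 0.14 (limma adjusted p = 0.394). Gab1, a docking protein of the EGF receptor, had 17.2 and 15.8 against 23.3 and 20.9 FPKM, a log2 change of 0.40. Crk, an adaptor, and Pik3r3, a PI3 kinase regulatory subunit, had log2 changes of 0.40 and 0.28. In these 4 genes, named for the smallest p, both Zeb1 libraries were above both controls. Of the 37, that held for 9, and 3 lay below, against 18.2% and 19.5% of all genes.

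In the RAS-ERK arm 22 genes were tested and 0 passed in limma, with a median log2 change of 0.01 (-0.121 without control replicate 2). Before adjustment (p under 0.05), 2 were higher and 0 lower, against 3.23% and 3.68% of all genes. Rps6ka1, a kinase downstream of ERK, had 5.46 and 5.24 FPKM in the control and 13.1 and 10.1 FPKM in the Zeb1 libraries, a log2 change of 0.98 (limma adjusted p = 0.469). The scaffold gene Ksr1 had 9.06 and 6.52 against 13.7 and 13.6 FPKM, a log2 change of 0.75. Pak1, a kinase of the cytoskeleton, had 60.6 and 68.3 against 51.0 and 43.0 FPKM, and the RAF kinase gene Araf had 69.5 and 62.9 against 57.9 and 48.9 FPKM. The first pair was higher and the second lower in both Zeb1 libraries, and all 4 were named for the smallest p. Of the 22, both Zeb1 libraries lay above both controls for 4 and below for 5, against 18.2% and 19.5% of all genes.

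Target and feedback genes of ERK had the highest median of the 8 lists, 0.44 over 21 genes tested. The change was positive for 19 of them, and for 50.1% of all genes. Of the 21, 0 passed in limma, with 2 higher and 0 lower before adjustment (p under 0.05), against 3.23% and 3.68% of all genes. The list's median ranged from 0.325 to 0.615 with 1 library left out. The immediate-early gene Fos had 138 and 70.1 FPKM in the control and 744 and 217 FPKM in the Zeb1 libraries, and Egr1 had 38.7 and 23.9 against 246 and 64.8 FPKM. Zeb1 replicate 1 stood far above Zeb1 replicate 2 in both, and without it the list's median was 0.33. Dusp5, a phosphatase that acts on ERK, had 4.22 and 4.06 against 14.2 and 7.43 FPKM, a log2 change of 1.14. The ETS factor gene Etv1 had 1.56 and 1.46 against 3.14 and 2.93 FPKM, a log2 change of 0.69, with little spread in either group. These 4 genes were named for the smallest p. Of the 21, both Zeb1 libraries lay above both controls for 11 and below for 1, against 18.2% and 19.5% of all genes.

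Inhibitors of the receptors and genes of their turnover had a median log2 change of 0.13 over 21 genes tested, of which 0 passed in limma. Before adjustment (p under 0.05), 3 were higher and 1 lower, against 3.23% and 3.68% of all genes. The higher count was 0 without control replicate 2 and without Zeb1 replicate 1, and 1 without either of the other libraries. Cbl, the ubiquitin ligase of the EGF receptor, had 58.1 and 40.9 FPKM in the control and 82.7 and 71.2 FPKM in the Zeb1 libraries, a log2 change of 0.64. Its partner Sh3kbp1 had 25.7 and 24.1 against 34.0 and 34.5 FPKM, and the endocytic adaptor Eps15 20.8 and 15.5 against 32.5 and 25.2 FPKM. The endophilin gene Sh3gl2 had 7.48 and 5.80 against 3.99 and 3.54 FPKM, a log2 change of -0.67. Cbl, Sh3kbp1 and Eps15 were thus higher and Sh3gl2 lower in both Zeb1 libraries, and all 4 were named for the smallest p. Of the 21, both Zeb1 libraries lay above both controls for 7 and below for 3, against 18.2% and 19.5% of all genes.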

How the data were processed

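RNA was measured in 2 control and 2 Zeb1 libraries. The values are FPKM as deposited by the authors, 1 per gene in each library. The submitters' processing notes name GRCm38, STAR, Cufflinks and DESeq2, and the role of each, the versions and the use of strand are not given in the sources used here. No column of another sample was present. Gene names that a spreadsheet had turned into dates (27) were restored by identifier, and 1 was added to gene starts, which are counted from 0. Relative depth came from genes shorter than 200 bp, as the ratio near 1 that recurred most often, at 65 of 412, 73 of 426 and 70 of 451 genes (within 0.5%). Absolute depth is unknown, so no interval or floor for counting error is given.

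Libraries were compared with limma 3.58.1 in R 4.3.3, on log2(FPKM + 1), with an intensity trend, two-sided, without a block, over the 14330 genes whose mean reached 1 FPKM, with Benjamini-Hochberg adjustment and a threshold of 0.05. Log2 changes are given as Zeb1 minus control. Steps were checked on simulated data. With 2 libraries a group, the smallest exact permutation p is 0.333, and no such test was made. The labels do not say whether replicates come from separate litters, and the p-values reflect the spread of these libraries alone, which may be technical. Members and lists were chosen with earlier results of these data known. Named were all members and Zeb1, up to 4 genes per pathway list by the smallest p, the 3 most abundant genes of the marker lists drawn on, the 5 genes most like the member with the largest change, and genes overlapping members. Of the listed genes only Tubb3 was not found by symbol and is not analysed here. Nrdc, Erbin and Ccn2 were found under the older symbols Nrd1, Erbb2ip and Ctgf. Sequences are from RefSeq and gene models from GENCODE M21. Alternatives were other pseudocounts, filters, scalings and gene sets, no trend, a replicate block, and leaving out each library. Figures were made in Python 3.11.15 with matplotlib 3.10.9.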

Additional observations from a re-analysis of the deposited data

How the results depend on the processing

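Over all genes, 28 passed in limma at an adjusted p under 0.05, against 1 without a filter, 3 among protein-coding genes alone, 11 with a replicate block and 0 with any 1 library left out. With 1 library left out, a group's lone library is taken to vary as much as the other group's. The Zeb1 call ended without a filter (adjusted p = 0.229), with the replicate block (0.0735) and with 1 library left out (0.116 to 0.330). Same-numbered libraries deviated from their group means with a correlation of 0.083 across genes, and they share only a number. In each of the 8 pathway lists, 0 genes passed under every alternative run. Nrg2 stayed between 1.77 and 3.13 and Egfr between 0.78 and 1.204 on the log2 scale, and Nrg1, Nrg3 and Erbb2 kept their sign. Nrg4 and Erbb4 turned to -0.016 and -0.12 with quantile normalization, and ranged from -0.0083 to 0.198 and from -0.43 to 0.46 with 1 library left out. Erbb3 entered only the fit without a filter. At a mean of at least 5 FPKM, Nrg1 was the only member tested. The cause was not tested. Of 495 values of 36 other named genes under the 14 alternatives, 489 kept their direction and their side of the threshold, and the other 6 are the lost Zeb1 calls. Of the named genes only Zeb1 passed in the main fit. The others had no call to lose, so their staying on the same side of the threshold says little. FPKM without depth and 2 libraries a group limit what can be said of genes near or under 1 FPKM.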
